A study of Rattus norvegicus with 24 samples.

Results

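Transcript levels of the Dlg, Shank and Homer genes, which encode scaffold proteins of the postsynaptic density, were described in the nucleus accumbens (NAc) of male rats. The genes were chosen by name: Dlg1 to Dlg4, Shank1 to Shank3 and Homer1 to Homer3, 10 of the 32545 genes measured. RNA-seq values were held for 24 libraries, 1 per rat, from adult male Sprague Dawley rats that arrived at 8 weeks of age. The study asked whether earlier immune stimulation and heroin leave related transcriptional changes in the NAc, a striatal region that takes part in reward.

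In the injection experiment, rats first received 5 intraperitoneal injections of saline or of lipopolysaccharide (LPS, a bacterial cell wall component that activates the immune system) at 250 µg/kg. After an interval they received saline or heroin intraperitoneally for 5 days, with heroin rising from 1 to 5 mg/kg. The sample annotation gives 1 h from the last injection to killing. The study's methods place every injected rat in a locomotor chamber shortly after that injection, with killing within 1 h of the end of that session. The exact time from injection to killing is therefore uncertain. The groups are named by the first and then the second treatment: LPS-Heroin had both, LPS-Saline and Saline-Heroin had either, and Saline-Saline had neither. In the self-administration experiment, rats with a jugular catheter took saline (Saline-SA) or heroin at 0.075 mg/kg per infusion (Heroin-SA) in 10 daily sessions of 6 h and were killed right after the last one. These rats received no LPS and were housed singly on a reversed light cycle, whereas the injected rats were housed in pairs on a normal one. Each of the 6 groups held 4 libraries. The labels give 1 week between the LPS and heroin courses and the study's methods give a shorter interval, so the length of that gap is uncertain.

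At an excitatory synapse, the scaffold lies beneath the receptors in layers. Dlg proteins are membrane-associated guanylate kinases: their PDZ domains bind the tails of NMDA receptors and of the partners of AMPA receptors, and Dlg4 encodes PSD-95, the best known of them. Shank proteins form the deeper layer and are joined to Dlg proteins through the Dlgap (GKAP) proteins. Homer proteins bind Shank on one side and group I metabotropic glutamate receptors and IP3 receptors on the other. Long Homer proteins form multimers, and a short product of Homer1, made after neuronal activity, lacks the multimer domain and uncouples these links. The values here are per gene, so the short and long Homer1 transcripts could not be separated.

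Values are FPKM, fragments scaled by the length of the gene model and the size of the library. This scaling does not correct for differences in RNA composition between libraries, such as the share of mitochondrial reads given below. Between 12312878 and 18850240 reads per library fell on genes. The median number of reads over the 24 libraries was highest for Dlg4, at 12017, was 966.5 for Homer1 and was lowest for Homer2, at 93.5, so that Homer2 carries the largest counting error. In the table Shank2 has a second entry (chromosome 1, 215214853 to 215241723) with 0 to 46 reads per library. It lay under the filter on low values and is not tested, and Shank2 below means the entry at chromosome 1, 217151166 to 217592763. The other 9 genes had 1 entry each, so all 10 members passed the filter. Coordinates are those of the rn6 table. Shank2 overlaps a ribosomal RNA entry and Homer2 a U6 entry, both at 0 FPKM in all libraries, and the other members overlap no gene. Markers of striatal medium spiny neurons were abundant in all libraries, with a summed level of the 10 genes from 1224 to 3266 FPKM. Markers of cortical excitatory neurons (5 genes of the list in the table) varied more, from 44.9 to 437 FPKM. A list of 5 choroid plexus genes reached 332 FPKM in Saline-Saline replicate 1, 27.0 in LPS-Heroin replicate 4 and at most 6.59 elsewhere. Mitochondrial genes took 6.82 to 9.10% of reads in the injection experiment and 10.0 to 15.9% in self-administration. The tissue is bulk, so fewer cells of a type and less RNA per cell cannot be told apart.

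Dlg4 was the most abundant scaffold transcript. Its level (chromosome 10, 56627411 to 56653599) averaged 254 FPKM over the 24 libraries and ran from 218 to 304. The other Dlg genes followed at a distance, Dlg1 (chromosome 11, 72163749 to 72378895) at 52.5, Dlg2 (chromosome 1, 156552328 to 157269747) at 40.6 and Dlg3 (chromosome X, 70596576 to 70648532) at 38.5 FPKM. Within the Shank family, Shank3 (chromosome 7, 130474508 to 130532758) and Shank1 (chromosome 1, 100297152 to 100344377) were near each other at 39.7 and 39.2 FPKM, and Shank2 was low at 2.67. Among the Homer genes, Homer1 (chromosome 2, 22909569 to 23009678) led at 29.0 FPKM, above Homer3 (chromosome 16, 20881518 to 20890949) at 5.02 and Homer2 (chromosome 1, 143443300 to 143535583) at 3.37. In Saline-Saline rats Dlg4 made up 65.3 ± 0.380% (SD, n = 4) of the summed Dlg FPKM. In the same rats Homer1 made up 77.4 ± 6.89% of the Homer sum, and Shank1 and Shank3 made up 49.2 ± 5.98% and 47.2 ± 6.66% of the Shank sum. The plot of each member by library shows that the rats of a group differed little for Dlg3, whose coefficient of variation had a median of 3.29% over the 6 groups, and for Dlg4, at 6.34%. Spread was wider for Homer1, Shank2 and Homer2, with medians of 17.7, 17.3 and 20.4%.

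**Figure D1:**
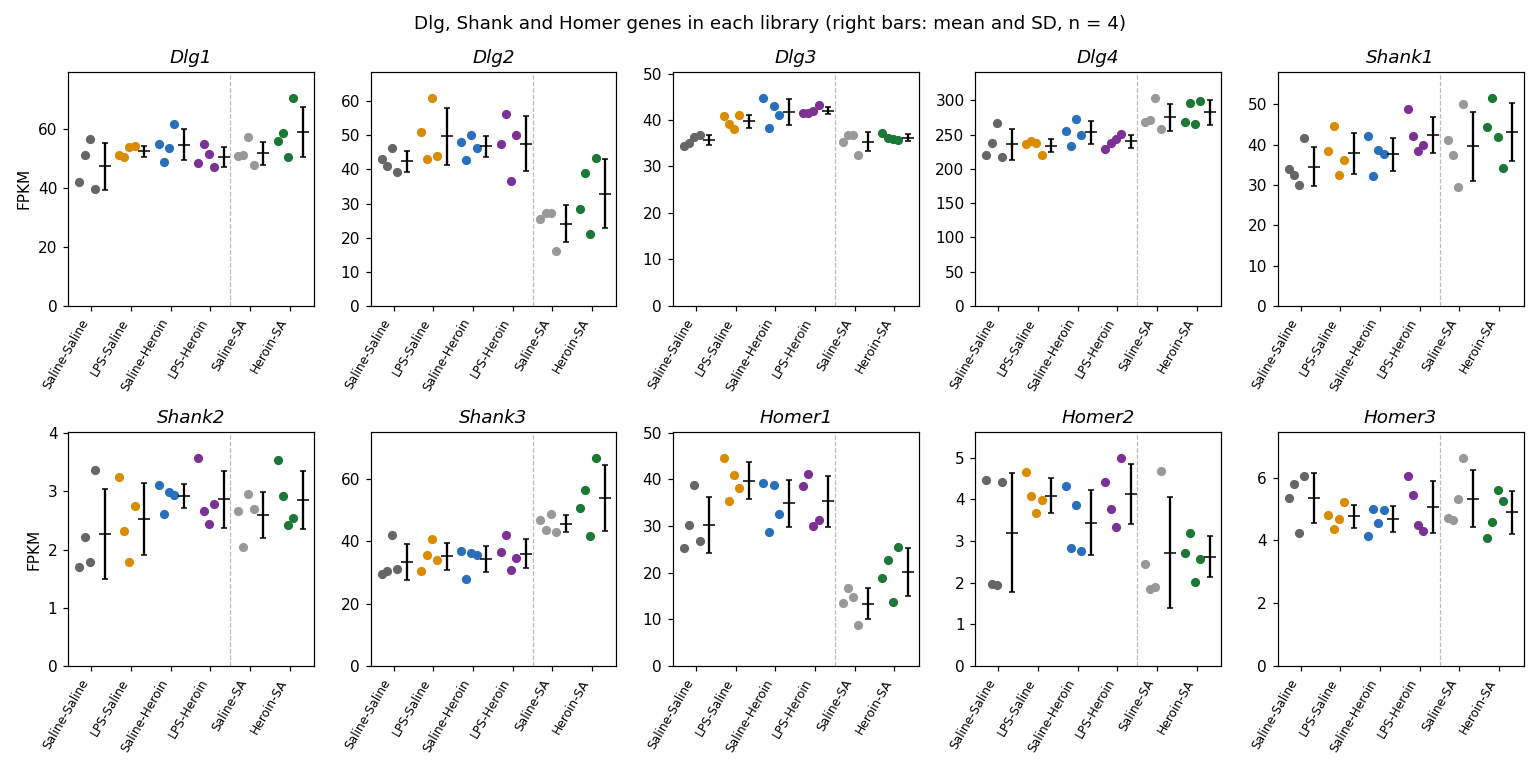
FPKM (y axes from 0, each gene on its own scale) of the 10 scaffold genes in every library of the 6 groups; points are rats, and the bar at the right of each group is the mean with SD (n = 4). Dlg3 of the 12 rats given LPS, heroin or both by injection lies above the 4 Saline-Saline rats. Self-administration is to the right of the dashed line. There Homer1 and Dlg2 are lower and Shank3 is higher in all Saline-SA rats than in all injected rats. Heroin-SA overlaps the injected rats in these 3 genes.

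**Figure D2:**
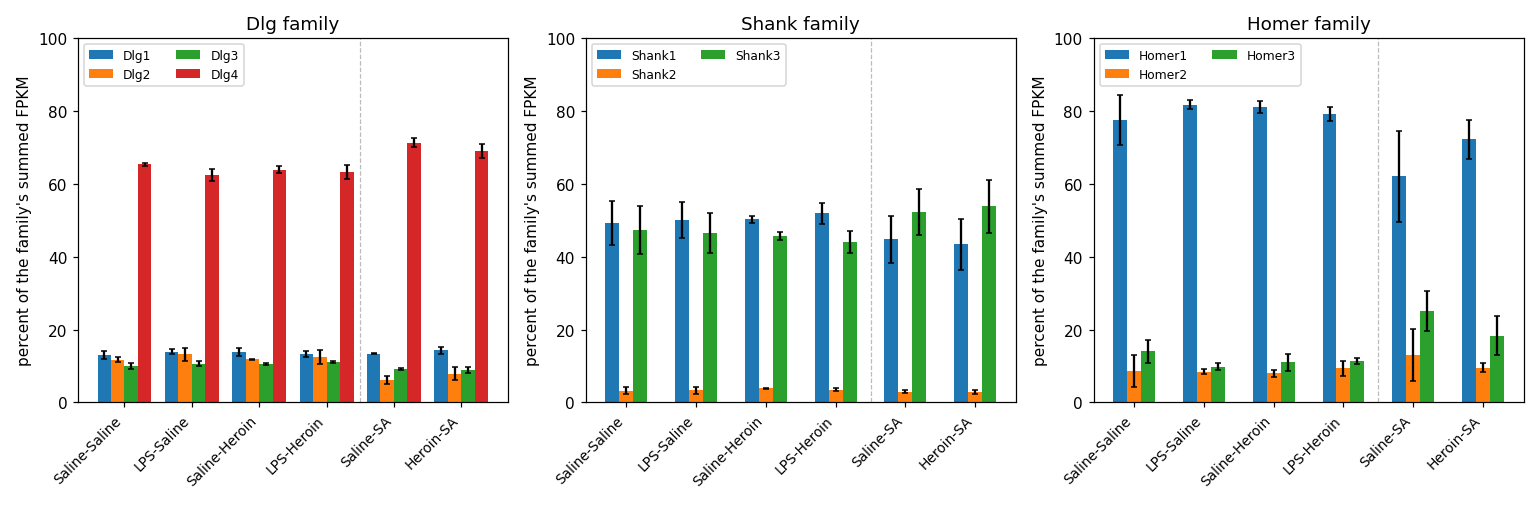
Share of each family's summed FPKM (y axis, percent) taken by each member in the 6 groups, as mean and SD of 4 libraries. Dlg4 holds 62.3 to 71.3% of the Dlg sum in every group, and the share of Homer1 is 77.4% in Saline-Saline and 62.0% in Saline-SA.

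The sequences before the annotated starts of 3 members are shown because these members differed most between the 2 experiments, as described further down: Homer1 and Dlg2 toward lower levels and Shank3 toward higher ones. Each is the stretch of 250 bases before the RefSeq start in the GRCr8 assembly, which is another build than the rn6 of the table, 5′ to 3′ on the strand of the gene. Homer1 is at chr2:26278762-26279011, Dlg2 at chr1:154539421-154539670 and Shank3 at chr7:122448073-122448322, all on the plus strand. Capitals mark the 1 match to a searched motif, TATAAA on the opposite strand.
Homer1: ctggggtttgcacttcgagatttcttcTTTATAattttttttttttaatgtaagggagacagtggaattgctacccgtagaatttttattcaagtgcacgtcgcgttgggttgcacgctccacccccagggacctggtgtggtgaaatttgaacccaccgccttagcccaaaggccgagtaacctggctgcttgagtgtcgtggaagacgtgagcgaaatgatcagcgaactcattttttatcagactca
Dlg2: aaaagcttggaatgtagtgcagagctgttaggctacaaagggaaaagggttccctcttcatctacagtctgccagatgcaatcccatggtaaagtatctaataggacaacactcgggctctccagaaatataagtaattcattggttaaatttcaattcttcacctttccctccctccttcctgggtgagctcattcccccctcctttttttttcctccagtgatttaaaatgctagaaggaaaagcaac
Shank3: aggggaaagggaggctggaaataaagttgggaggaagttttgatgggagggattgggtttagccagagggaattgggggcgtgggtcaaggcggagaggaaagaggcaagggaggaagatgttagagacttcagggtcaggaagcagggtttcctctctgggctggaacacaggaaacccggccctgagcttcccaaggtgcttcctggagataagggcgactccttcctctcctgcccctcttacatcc

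The letters of 6 motifs were searched on both strands of all 33469 RefSeq stretches of this length. They were the cAMP response element TGACGTCA, in 1.59% of stretches, its shorter form TGACG, in 18.2%, which is contained in the former, the Egr site GCGGGGGCG, in 2.45%, TATAAA, in 12.9%, the GC box GGGCGG, in 30.5%, and the E-box CACGTG, in 5.59%. Sequences were held for 6 members. TATAAA was found in Homer1, CACGTG in Dlg1, and none of the 6 motifs in Dlg2, Dlg4, Shank3 or Homer3. The Homer1 stretch was 46.4% G and C with 12 CpG, Dlg2 had 42.4% and 1 CpG, and Shank3 had 56.0% and 4 CpG, beside medians of 51.2% and 5 over all stretches.

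Each treated group of the injection experiment was compared with Saline-Saline to ask how the scaffold genes differed after LPS, heroin or both. Groups were compared with limma on log2(FPKM + 0.1), and a gene was called when its unadjusted p was at most 0.05 and its fold change at least 1.3 in either direction. No gene tested reached an adjusted p under 0.05 in any comparison within an experiment, by limma-trend on FPKM at the settings used for the values given here or by limma-voom on the recovered reads, so the calls below rest on unadjusted p-values and are read against the share of all genes called. The 3 comparisons share the same 4 Saline-Saline rats.

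Dlg3, which encodes a Dlg protein that is prominent early in synapse development, was the member whose groups separated. In Saline-Saline rats it was 34.5, 35.0, 36.4 and 36.7 FPKM. LPS-Saline rats had 40.8, 39.2, 38.0 and 41.0 FPKM, Saline-Heroin rats 44.8, 38.2, 43.1 and 41.1, and LPS-Heroin rats 41.5, 41.5, 41.8 and 43.1. All 12 treated libraries lay above all 4 Saline-Saline libraries. The log2 fold change was 0.16 ± 0.05 (SE) after LPS, with a limma p of 0.0161 and an adjusted p of 0.704. After heroin it was 0.23 ± 0.06, with a limma p of 0.00490 and an adjusted p of 0.750. After both it was 0.24 ± 0.05, with a limma p of 0.000773 and an adjusted p of 0.169. The mean FPKM was 1.11, 1.17 and 1.18 times that of Saline-Saline in these groups, below the fold limit, so Dlg3 was not called in any of them. By the two-sided exact permutation test each of the 3 differences had p = 0.0286, the smallest that 4 against 4 libraries can give. The shares of all tested genes whose groups did not overlap were 4.11% for LPS-Saline, 3.39% for Saline-Heroin and 6.86% for LPS-Heroin. The shares with an unadjusted p of at most 0.05 were 6.63, 6.57 and 11.3%. Leaving out any 1 library kept the log2 fold changes between 0.14 and 0.18 after LPS, between 0.19 and 0.27 after heroin and between 0.22 and 0.25 after both.

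Cortical excitatory neuron markers differed between the same groups. Their summed level was 89.2 to 270 FPKM in Saline-Saline and 346 to 437 in LPS-Heroin, with 110 to 378 in LPS-Saline and 151 to 424 in Saline-Heroin, and 5 of 5 genes were called higher in LPS-Heroin than in Saline-Saline. In LPS-Saline and Saline-Heroin 0 of 5 were called. The 2 treated rats with the lowest marker levels, LPS-Saline replicate 3 at 110 FPKM and Saline-Heroin replicate 2 at 151, had the lowest Dlg3 of their groups, 38.0 and 38.2 FPKM. Over all injected rats Dlg3 was higher where these markers were higher, with the correlations given further down. Saline-Saline replicates 2 and 4, at 35.0 and 36.7 FPKM of Dlg3, had marker levels of 270 and 269. Markers of the septum and ventral forebrain (6 genes) went the other way, with a summed level of 33.1 to 117 FPKM in Saline-Saline and 20.8 to 51.2 in LPS-Saline, and of 22.9 to 72.4 and 16.8 to 42.7 in the heroin groups without and with LPS. Of these 6 genes 0, 1 and 3 were called lower in the comparisons of LPS, heroin and both, and all 6 had a negative log2 difference in each (medians -0.67, -0.76 and -1.10). The 6 oligodendrocyte markers also had negative differences in each (medians -0.23, -0.36 and -0.24) with none called. The part of these markers in the Dlg3 difference was not tested. All 5 markers had a mean above 0.5 FPKM in every group.

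Homer1 was the only member called after LPS alone. It was 25.3, 30.3, 38.7 and 26.7 FPKM in Saline-Saline and 44.6, 35.5, 40.8 and 38.1 in LPS-Saline. The third Saline-Saline rat lay within the LPS-Saline range and the other 3 below it. Homer1 rose by a log2 fold change of 0.41 ± 0.13 (SE), with a limma p of 0.0137 and an adjusted p of 0.697. By the exact permutation test p was 0.0857. Over all genes 2.36% were called in this comparison, and 1 of 10 members was. The call was lost without Saline-Saline replicate 1, Saline-Saline replicate 4 or LPS-Saline replicate 1, when the log2 fold change was 0.33 to 0.35 and the p still at most 0.05. Saline-Saline replicate 1 was also the rat with choroid plexus markers at 332 FPKM and septal markers at 117 FPKM, the highest of all libraries for each, and with the lowest Homer1 of its group. Septal markers had a negative log2 difference in 6 of 6 genes after LPS, with a median of -0.67. The part of these markers in the Homer1 difference was not tested. In Saline-Heroin the gene was 28.8 to 39.3 FPKM, with a log2 difference of 0.21 (95% interval -0.12 to 0.55), and in LPS-Heroin it was 30.0 to 41.2 FPKM, with 0.23 (-0.11 to 0.57). A list of 10 activity-regulated genes such as Fos, Arc and Egr1 had 0 members called after LPS, 8 called lower in Saline-Heroin (3.07% of all genes called) and 1 called higher with none lower in LPS-Heroin (5.42%), each against Saline-Saline. The medians of their log2 differences were 0.39, -0.70 and -0.31. In LPS-Heroin the summed level of these 10 genes was 517 FPKM in replicate 1 and 256, 213 and 241 in replicates 2 to 4. It was 157 to 252 FPKM in Saline-Heroin and 256 to 451 in Saline-Saline. Against LPS-Saline, 8 of the 10 genes were called lower in LPS-Heroin, where 2.29% of all genes were called. Homer2, which binds the same metabotropic receptors, was 1.96 to 4.47 FPKM in Saline-Saline and 3.66 to 4.65 in LPS-Saline (log2 difference 0.45, 95% interval -0.21 to 1.11). Its Saline-Saline rats fell into a low pair at 1.96 and 1.96 and a high pair at 4.43 and 4.47. Homer3 was the one member with a lower mean in all 3 treated groups, 5.36 ± 0.801 FPKM (SD, n = 4) in Saline-Saline against 4.67 ± 0.413 in Saline-Heroin, 4.77 ± 0.357 in LPS-Saline and 5.07 ± 0.823 in LPS-Heroin. Each of its 3 intervals spanned 0.

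Shank1, a deep-layer scaffold that enlarges spines, had a higher mean in LPS-Heroin than in Saline-Saline but was not called. It was 34.0, 32.6, 30.1 and 41.5 FPKM in Saline-Saline and 48.8, 42.1, 38.5 and 40.0 in LPS-Heroin. Saline-Saline replicate 4 lay inside the LPS-Heroin range. The exact permutation p was 0.0857. The log2 difference was 0.30 ± 0.11 (SE), with a limma p of 0.0243 and an adjusted p of 0.354, under the fold limit. Without Saline-Saline replicate 4 it was 0.39 and passed the limit, as did Shank2 at 0.56, so that 2 members were then called. Shank1 was 32.4 to 44.6 FPKM in LPS-Saline and 32.1 to 42.1 in Saline-Heroin, with log2 differences of 0.13 each. Shank2 averaged 2.27 ± 0.770 FPKM (SD, n = 4) in Saline-Saline and 2.92 ± 0.210 in Saline-Heroin, a log2 difference of 0.40 with a 95% interval of -0.09 to 0.88. It also passed the call in that comparison without Saline-Saline replicate 4, at 0.60. Of the cortical excitatory markers 5 of 5 were called higher in LPS-Heroin than in Saline-Saline, and 0 of 5 in Saline-Heroin. Over the injected rats Shank1 and Shank2 were higher where these markers were higher, with the correlations given further down. The part of these markers in the Shank1 and Shank2 differences was not tested. Shank3, the member tied to autism in people with deletions of the gene, was 29.7, 30.3, 41.9 and 31.2 FPKM in Saline-Saline and differed little by treatment, with log2 differences of 0.09, 0.05 and 0.12 in the 3 comparisons and intervals within -0.25 and 0.41.

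Dlg4 was among the least variable members. Its mean was 236 ± 22.8 FPKM (SD, n = 4) in Saline-Saline and 234 ± 9.49 in LPS-Saline, and 253 ± 16.1 and 240 ± 9.40 in the groups given heroin without and with LPS. The log2 differences were -0.01, 0.10 and 0.03, and the 95% intervals stayed within -0.18 and 0.28, so that a difference of the fold limit lay outside them. Dlg1, which encodes a Dlg protein with a role in the delivery of AMPA receptors, was 39.7 to 56.7 FPKM in Saline-Saline and 47.0 to 61.4 in the other 3 injected groups. Its log2 difference was 0.16, 0.22 and 0.10 in the 3 comparisons, with intervals that spanned 0. Dlg2 was 39.3 to 46.1 FPKM in Saline-Saline, against 42.8 to 50.2 in Saline-Heroin, 43.0 to 61.0 in LPS-Saline and 36.6 to 56.1 in LPS-Heroin. Its log2 difference of 0.22 after LPS (-0.04 to 0.47) and of 0.14 after heroin (-0.02 to 0.30) did not pass the p limit.

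Across the 10 members, 8 had a positive log2 difference in LPS-Saline and 9 in each group given heroin, all against the same Saline-Saline rats. The medians were 0.16, 0.16 and 0.19 beside 0.01, 0.00 and 0.00 over all genes. Of the 10 medium spiny neuron markers 7, 10 and 7 were positive, with medians of 0.10, 0.16 and 0.10. Of the 6 oligodendrocyte markers 0 were positive in each comparison. The lean of the members was therefore not particular to them. No member was called in Saline-Heroin, where 3.07% of genes were, or in LPS-Heroin, where 5.42% were. Without the fold limit 2, 1 and 2 of the 10 members passed, where 6.63, 6.57 and 11.3% of all genes did.

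Comparisons between treated groups asked what heroin added after LPS and what LPS added before heroin. No member was called, and none had an unadjusted limma p of at most 0.05, in LPS-Heroin against LPS-Saline (all genes 2.29% called, 4.6% at the p limit) or against Saline-Heroin (2.2 and 4.21%). Dlg3 was higher in all 4 LPS-Heroin rats, at 41.5 to 43.1 FPKM, than in all 4 LPS-Saline rats, at 38.0 to 41.0. That separation held for 2.58% of all genes, and the exact permutation p was 0.0286, but the log2 difference was only 0.08 with a limma interval of -0.04 to 0.20. In the comparison with Saline-Heroin no member had groups apart, against 2.37% of genes. Pooled over LPS, Dlg3 was higher with heroin by 0.15 ± 0.04 (SE) on the log2 scale, with a limma p of 0.000765 and an adjusted p of 0.547. Pooled over heroin it was higher with LPS by 0.08 ± 0.04, with a limma p of 0.0380 and an adjusted p of 0.730. It was the 1 member of 10 at the p limit in both, where 8.11 and 6.67% of genes were, and none was called, beside 2.45 and 1.75% of genes. The interaction, the change with both treatments less the sum of the single changes, was negative for 8 of 10 members, with a median of -0.17 beside 0.00 over all genes. Its lowest values were -0.39 for Homer1 (95% interval -0.82 to 0.04), -0.27 for Dlg1 (-0.57 to 0.03) and -0.21 for Dlg2 (-0.58 to 0.17). The difference of Dlg3 with heroin was 0.23 without LPS and 0.08 after LPS. Its interaction was -0.15 (-0.30 to 0.01), with a limma p of 0.0625. No member passed the p limit for the interaction, against 4.02% of genes, and 2.31% of genes were called.

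**Figure D3:**
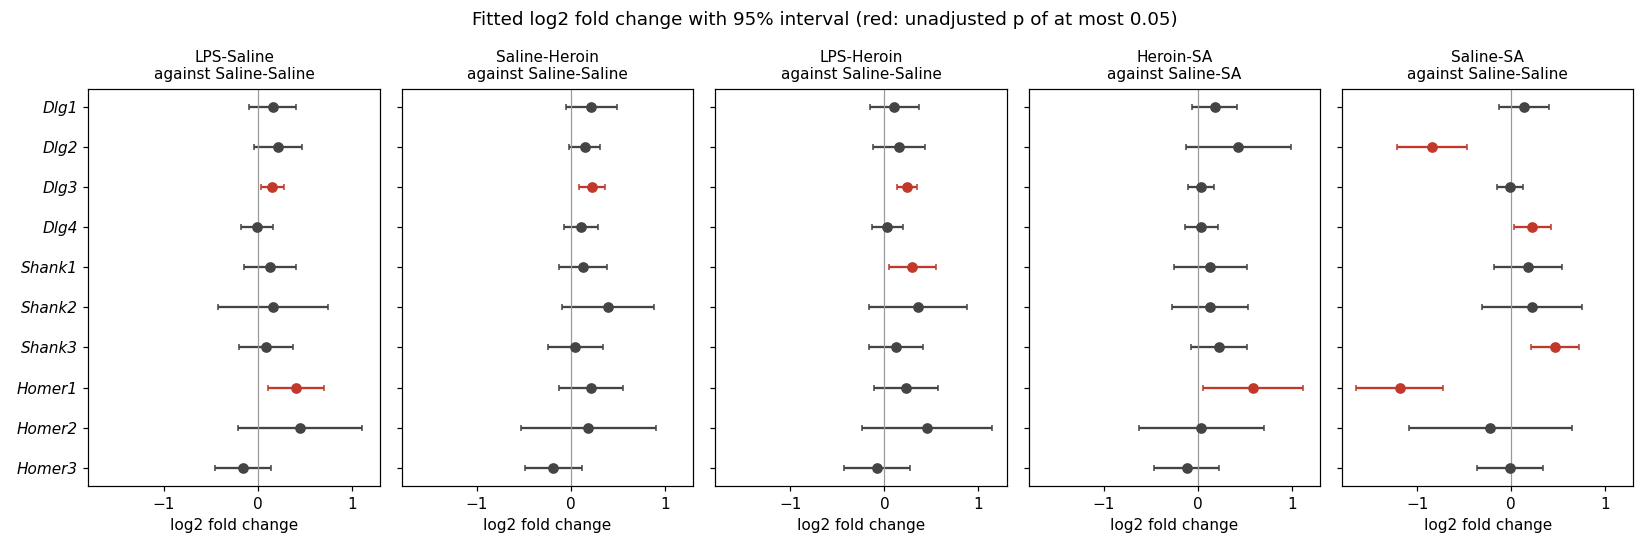
Fitted log2 fold change (x axis, point) with its 95% interval (line) for the 10 members in 5 comparisons; red marks an unadjusted limma p of at most 0.05. Dlg3 is red in the 3 comparisons with Saline-Saline after injection, at 0.16 to 0.24, and Homer1 and Dlg2 stand furthest from 0 between the saline groups, at -1.19 and -0.84.

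Heroin self-administration was compared with saline self-administration within its own experiment. Homer1 was 13.5, 16.6, 14.7 and 8.75 FPKM in Saline-SA and 18.9, 22.7, 13.7 and 25.4 in Heroin-SA. Heroin-SA replicate 3 lay inside the Saline-SA range and the other 3 rats above it. The exact permutation p for Homer1 was 0.0857. Homer1 rose by a log2 fold change of 0.59 ± 0.23 (SE), with a limma p of 0.0336 and an adjusted p of 0.405. It was the 1 member called of 10, where 5.44% of all genes were called and 11.5% passed the p limit alone. The call was lost without any 1 of 5 of the 8 libraries (Saline-SA replicates 1 and 4 and Heroin-SA replicates 1, 2 and 4), with log2 fold changes from 0.40 to 0.61. Saline-SA replicate 4, the lowest library, also had 14.1% mitochondrial reads, second to Saline-SA replicate 3 at 15.9%, and the part of RNA state in the difference was not tested.

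Dlg2, which holds NMDA receptors and potassium channels at the synapse, followed Homer1 rat by rat. It was 25.5, 27.3, 27.3 and 16.1 FPKM in Saline-SA and 28.4, 38.9, 21.1 and 43.3 in Heroin-SA. Here too the third Heroin-SA rat was low and the fourth highest. Its log2 difference was 0.43 with a 95% interval of -0.13 to 0.99, and it passed the call in a fit of all 6 groups together and without Heroin-SA replicate 3. Shank3 was 46.8, 43.7, 48.8 and 42.9 FPKM in Saline-SA and 50.6, 56.6, 41.6 and 66.7 in Heroin-SA, a log2 difference of 0.22 (-0.07 to 0.52). The order of the 4 Heroin-SA rats was the same for Homer1, Dlg2, Shank3, Dlg1 and Dlg4, and differed for the other members. The share of mitochondrial reads ran in the reverse order in these rats, from 10.0% in replicate 4 to 11.8% in replicate 3. So did the summed cortical excitatory markers, at 317, 302, 383 and 44.9 FPKM in Heroin-SA replicates 1 to 4. In Saline-SA the order of Homer1 was the reverse of neither. The parts of RNA state and of the cortical markers in the shared order were not tested. Dlg1 had a log2 difference of 0.18 (-0.06 to 0.42), with 47.7 to 57.2 FPKM in Saline-SA and 50.3 to 70.4 in Heroin-SA. Dlg3 was 32.5 to 36.9 FPKM in Saline-SA and 35.7 to 37.2 in Heroin-SA, and its difference of 0.04 had an interval of -0.11 to 0.18. Dlg4 was 275 ± 19.5 FPKM (SD, n = 4) in Saline-SA and 283 ± 17.8 in Heroin-SA. For Shank1, Shank2, Homer2 and Homer3 the log2 differences were 0.13, 0.13, 0.04 and -0.12, and all 4 intervals spanned 0. No member had groups that did not overlap, against 6.8% of all genes. The activity-regulated list had 7 of 10 genes called lower in Heroin-SA and 0 higher, where 5.44% of all genes were called.

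Whether the change with heroin differed between the 2 routes was asked of the difference between the changes. That was Heroin-SA over Saline-SA less Saline-Heroin over Saline-Saline, a comparison added after the data were seen. The experiments differ in route, dose, days of heroin, surgery, housing, light cycle and time of killing at once, and these cannot be told apart. Dlg3 was the 1 member at the p limit. Its change was 0.04 by self-administration and 0.23 by injection, a difference of -0.19 ± 0.08 (SE) with a limma p of 0.0325 and an adjusted p of 0.744. For Homer1 the difference was 0.37 with an interval of -0.26 to 1.01. Of all genes 6.55% passed the p limit and 4.38% were called, and 0 of 10 members were called.

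The largest differences among the members lay between the saline groups of the 2 experiments. Saline-SA and Saline-Saline differ in surgery, housing, light cycle, time of killing and experiment at once, and these cannot be told apart. Homer1 was 8.75 to 16.6 FPKM in Saline-SA against 25.3 to 38.7 in Saline-Saline. It fell by 1.19 ± 0.20 (SE) on the log2 scale, with a limma adjusted p of 0.00453. Dlg2, at 16.1 to 27.3 against 39.3 to 46.1 FPKM, fell by 0.84 ± 0.16, with a limma adjusted p of 0.00735. Shank3 moved the other way, 42.9 to 48.8 against 29.7 to 41.9 FPKM, and rose by 0.47 ± 0.11, with a limma adjusted p of 0.0180. These 3 members had groups that did not overlap and were called, and none of the calls was lost by leaving out 1 library, although the adjusted p of Shank3 was 0.0521 without Saline-Saline replicate 1 and 0.0506 without Saline-Saline replicate 4. They are 3 of 10, where 22.7% of all genes were called, 37% passed the p limit, 23.7% had an adjusted p under 0.05 and 28.3% had groups apart. Dlg4, at 259 to 304 against 218 to 267 FPKM, was higher by 0.23 ± 0.09 with a limma adjusted p of 0.0878 and did not reach the fold limit. Dlg3 differed by -0.01 with an interval of -0.15 to 0.13. For Dlg1, Shank1, Shank2, Homer2 and Homer3 the log2 differences were 0.14, 0.18, 0.22, -0.22 and -0.01, with intervals that spanned 0. Medium spiny neuron markers were higher in Saline-SA in 10 of 10 genes, 7 of them called, with summed levels of 1909 to 3266 FPKM against 1224 to 2478. The 4 endothelial markers measured summed to 65.1 to 82.1 FPKM against 49.7 to 58.5, with 2 called higher. Of the oligodendrocyte, astrocyte and microglia markers 4, 2 and 2 of 6 genes were called lower, with medians of -0.41, -0.39 and -0.29, and the septal list had 1 of 6 called lower. Of the activity-regulated genes 5 of 10 were called lower. With the mitochondrial share given above these values move with the same contrast, and their part in it was not tested.

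By family, the share of Homer1 in the Homer sum was 62.0 ± 12.6% (SD, n = 4) in Saline-SA, 72.1 ± 5.45% in Heroin-SA and 77.4 to 81.7% as group means in the injection experiment. The share of Dlg2 in the Dlg sum was 6.19 ± 1.14% in Saline-SA and 7.91 ± 1.80% in Heroin-SA, against 11.8 ± 0.679% in Saline-Saline. Dlg4 took 71.3 ± 1.18% of the Dlg sum in Saline-SA. Ordered by mean level, neighbouring groups overlapped for 8 of the 10 members. The exceptions were Dlg3, where LPS-Saline lay wholly above the next group, Heroin-SA, and Shank3, where Saline-SA lay wholly above the next, LPS-Heroin.

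Lists of genes that act with the scaffold were followed. One held 32 partners, among them the Dlgap linkers and the CaM kinase II subunits, and the other 6 genes for proteins that bind Homer. Of the 32 partners, 1 each was called higher in LPS-Saline and Saline-Heroin and 4 each in LPS-Heroin and Heroin-SA, and none lower in these comparisons, where 2.36, 3.07, 5.42 and 5.44% of all genes were called in either direction. Between the saline groups 8 were lower and 2 higher in Saline-SA, where 22.7% of all genes were called. The median log2 difference of the partners was 0.10, 0.19 and 0.17 in the comparisons of LPS-Saline, Saline-Heroin and LPS-Heroin with Saline-Saline, 0.13 in Heroin-SA and -0.13 between the saline groups, beside medians of 0.00 to 0.01 over all genes. Camk2a, a kinase subunit activated by calcium entry at the synapse, was 247 ± 17.3 FPKM (SD, n = 4) in Saline-Saline and 331 ± 50.2 in Saline-Heroin. It rose by 0.41 ± 0.11 (SE) on the log2 scale, with a limma adjusted p of 0.750. In LPS-Saline the partner called was Cnksr2, a Dlg-binding scaffold, by 0.43 with a limma adjusted p of 0.679. In LPS-Heroin the called partners with the smallest p were Nsmf, Kalrn and Dlgap1, by 0.45, 0.43 and 0.53, with limma adjusted p-values from 0.194 to 0.241. Kalrn encodes a spine-enlarging exchange factor and Dlgap1 a linker of Dlg to Shank. In LPS-Heroin against Saline-Heroin 1 partner was called, Lin7a, lower by a log2 change of -0.62.

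Of the 6 Homer-binding genes, none was called in LPS-Saline or Saline-Heroin, 1 was higher in LPS-Heroin, 1 was higher in Heroin-SA, and 2 were lower between the saline groups. Itpr1, the IP3 receptor gene, was the one called in LPS-Heroin, at 0.44 with a limma adjusted p of 0.436, and in Heroin-SA. It was 27.8 ± 5.99 FPKM (SD, n = 4) in Saline-SA and 42.2 ± 7.95 in Heroin-SA, a log2 change of 0.61 ± 0.19 (SE) with a limma adjusted p of 0.344. The partners Lrrc7 and Cttn were called in the same comparison, by 0.44 and 1.10. Grm5, the metabotropic receptor gene whose product Homer holds, was 30.9 ± 5.40 FPKM in Saline-Saline and 13.9 ± 2.44 in Saline-SA. It fell by 1.15 ± 0.15 on the log2 scale, with a limma adjusted p of 0.00147, in the comparison in which Homer1 fell by 1.19. The other called partners with the smallest p there were Frmpd4, a Dlg-binding protein, at -1.28, and Camk2a, at -0.54. Lin7c and Ryr2 of these lists had a called interaction of LPS and heroin, at -0.49 and -0.45, with limma adjusted p-values of 0.992.

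Levels of the members were set against each other and against 8 summed marker lists within each experiment, 250 relations in all, on the log2 scale and with permutation p-values adjusted over all of them. The rats of an experiment share preparation and dissection. In the 16 injected rats Shank1 and Shank2 went with the cortical excitatory markers. For Shank1 Pearson's r was 0.818 (permutation p = 3e-05, adjusted 0.00375) and Spearman's rho 0.826 (p = 0.00025, adjusted 0.0204), and r was 0.722 without the 2 rats farthest in the markers. For Shank2 r was 0.788 (p = 0.00076, adjusted 0.0380) and rho 0.665 (p = 0.00619, adjusted 0.111), with 0.621 without the 2 farthest. For Dlg3 r was 0.728 (p = 0.00165, adjusted 0.0517) and rho 0.791 (p = 0.00049, adjusted 0.0204), with 0.765 without the 2 farthest rats, so that it passed by rho and not by r. Within groups, after removal of the group means, r was 0.739 for Shank1, 0.756 for Shank2 and 0.603 for Dlg3. In the 8 self-administering rats r was -0.04 for Dlg3 and 0.03 for Shank2. Shank1 gave r = 0.765 there (exact permutation p = 0.0315, adjusted 0.193), which was -0.01 without the 2 rats farthest in these markers, so that the relation rests on them.

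With the septal markers r in the injected rats was -0.649 for Dlg3 (permutation p = 0.00678, adjusted 0.0807; rho -0.544, adjusted 0.266) and -0.695 for Homer1 (permutation p = 0.00215, adjusted 0.0517; rho -0.591, adjusted 0.170). Neither passed after adjustment, and r was -0.422 and -0.431 without the 2 farthest rats. With the oligodendrocyte markers r was -0.557 for Dlg3 (adjusted permutation p = 0.162), and with the choroid plexus markers it was -0.586 for Homer1 (adjusted permutation p = 0.104).

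Dlg1 went with the medium spiny neuron markers instead. Over the injected rats r was 0.847 (permutation p = 3e-05, adjusted 0.00375) and rho 0.856 (p = 4e-05, adjusted 0.01), 0.806 without the 2 farthest rats and 0.903 within groups. In the self-administering rats r was 0.615 (exact permutation p = 0.106, adjusted 0.389). The lowest Dlg1 values, 39.7 and 41.8 FPKM in Saline-Saline replicates 4 and 1, came from 2 of the 3 injected rats with the lowest spiny neuron markers, 1224 and 1309 FPKM. The third, LPS-Heroin replicate 1 at 1303 FPKM, had a Dlg1 of 48.3.

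Homer1 went with Dlg2 in the self-administering rats, where r was 0.969 (exact permutation p = 7.44e-05, adjusted 0.00620) with rho 0.976 (p = 0.000397, adjusted 0.0204) and 0.894 without the 2 farthest. In the injected rats r was 0.703 (permutation p = 0.00196, adjusted 0.0517) with rho 0.832 (p = 0.00015, adjusted 0.0187) and 0.689 without the 2 farthest. Within groups r was 0.976 and 0.619. Dlg1 went with Shank3 in self-administration, at r = 0.955 (exact permutation p = 0.000546, adjusted 0.0341) and rho 0.929 (adjusted 0.0698), with 0.839 without the 2 farthest, and Dlg1 and Dlg2 had r = 0.880 there (adjusted exact permutation p = 0.0517). The other pairs among Homer1, Dlg2 and Shank3 were positive in both experiments and did not pass after adjustment. Dlg2 and Shank3 had r = 0.669 in the injected rats (adjusted permutation p = 0.0706) and 0.887 in self-administration (adjusted exact permutation p = 0.0568). Homer1 and Shank3 had r = 0.669 (adjusted permutation p = 0.0736) and 0.826 (adjusted exact permutation p = 0.104). Between the experiments Shank3 was higher and Homer1 and Dlg2 lower in Saline-SA. Dlg4 and Homer3 had r = -0.725 in the injected rats (permutation p = 0.0014, adjusted 0.0517) with rho -0.794 (adjusted 0.0204), and r = -0.172 in self-administration (exact permutation p = 0.681).

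**Figure D4:**
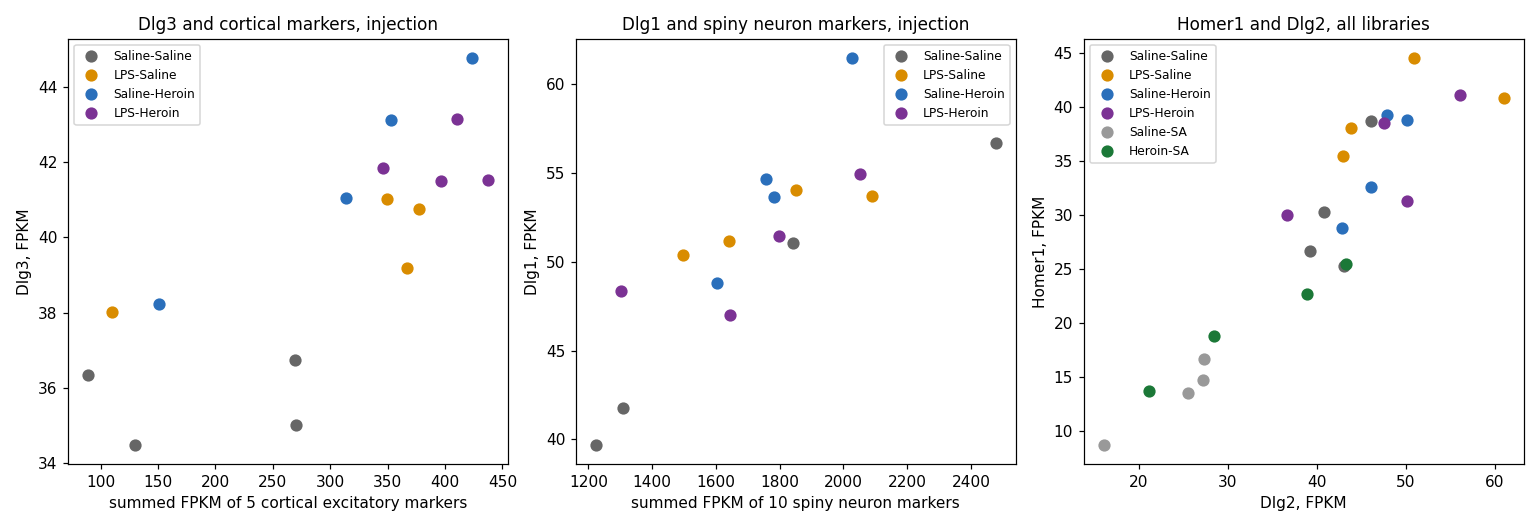
Each point is a rat, coloured by group: Dlg3 against the summed FPKM of 5 cortical excitatory markers and Dlg1 against that of 10 spiny neuron markers in the 16 injected rats, and Homer1 against Dlg2 in all 24 (axes in FPKM, not starting at 0). Dlg3 rises with the cortical markers over the 16 injected rats. The 2 treated rats at 110 and 151 FPKM of these markers have the lowest Dlg3 of their groups, 38.0 and 38.2. All Saline-SA rats lie below all injected rats in Homer1 and in Dlg2, and the highest Heroin-SA rats lie within the range of the injected rats.

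Among 12306 other genes with a mean of at least 1 FPKM, those whose log2 levels went closest with a member over all 24 libraries were listed, up to 2 with the highest Pearson r for each. The 24 libraries span both experiments, and for Homer1, Dlg2 and Shank3 much of the spread lies between them, so r within the 16 injected rats is given in brackets. Dlg2 had Abi2 at 0.975 (0.869). Homer1 had Dmxl2 at 0.973 (0.876) and Celf1 at 0.970 (0.774). Dlg4 had Celf5 at 0.918 (0.741) and Lzts3, a postsynaptic Shank-binding protein, at 0.908 (0.779). Dlg3 had Ppp3cb, a calcineurin subunit, at 0.901 (0.937) and Icam5, a dendritic adhesion protein of the forebrain, at 0.886 (0.864). Shank3 had Myo5c at 0.903 (0.606) and Entpd3 at 0.900 (0.724). Dlg1 had Chst15 at 0.882 (0.819) and Klhl2 at 0.863 (0.863). Shank1 had Farp1 at 0.844 (0.874) and Chd3 at 0.837 (0.841). The low genes had looser matches, Homer2 with Sept9 at 0.792 (0.683) and Nrip3 at 0.785 (0.618), Homer3 with Fam212a at 0.759 (0.755) and S1pr2 at 0.691 (0.569), and Shank2 with Slc16a14 at 0.693 (0.773) and Mif at 0.680 (0.655).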

How the data were processed

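Poly(A) RNA from 300 ng of total RNA per rat was made into directional libraries. Per the labels, reads were trimmed with fastp, aligned to rn6 with HISAT2 and counted with featureCounts, versions not given in the sources used here. The authors deposited FPKM values, counts divided by gene length and library size, of 32545 genes in 24 libraries. The study's methods mention 6 sequenced samples per group and 4 are analysed here. FPKM times gene length gave whole reads (within 0.1) for 100% of values, on library sizes 0.940 to 1.05 times the reads on genes. FPKM depends on the gene model, and whether strand was used in counting is not stated.

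Groups were taken from the labels. limma 3.58.1 (R 4.3.3, trend) was fitted to log2(FPKM + 0.1) over the 8 libraries of 2 groups, or the 16 of a contrast of 4 groups, keeping genes whose mean was 0.5 FPKM or more. P-values were adjusted by Benjamini-Hochberg over all genes tested. Single members were also compared by exact permutation (scipy 1.17.1). All 10 members are named. From the partner and Homer-binding lists, up to 3 called genes with the smallest p per comparison are named, and for each member the 2 genes of closest pattern, of which 1 is not reported here. The members and lists were chosen with earlier results of these data known. Motifs were searched in RefSeq sequences of GRCr8. The fit was tested on simulated data: of genes changed by 1 log2 unit it recovered 99% in LPS-Heroin against Saline-Saline (15137 genes) and 96% in Heroin-SA against Saline-SA (15037 genes). The simulated reads had the same fixed spread for every gene, and only genes at levels above those of Shank2 and Homer2 were changed. These rates therefore do not tell how often smaller differences, such as those of the members within an experiment, would be found. Alternatives were pseudocounts of 1 and 0.01, robust moderation, no filter, a mean of at least 1 FPKM, scaling to equal medians, quantile normalization, one fit of all 6 groups, limma-voom on recovered reads, the replicate number as a block, no fold limit, and leaving out each library. Marker lists other than the cortical and spiny neuron ones were added to the correlations after the data were seen.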

Additional observations from a re-analysis of the deposited data

Results flagged for a closer look

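In groups of 4, a library was singled out when its gap to the nearest other library took up more of the group's range than Dixon's critical value allows. Chance alone gives this in about 1 of 20 groups, and 3 of the 60 sets of a member in a group showed it. Dlg2 was 16.1 FPKM in Saline-SA replicate 4, with the other 3 libraries at 25.5 to 27.3. Shank3 was 41.9 FPKM in Saline-Saline replicate 3, with the others at 29.7 to 31.2. Shank3 was also 28.0 FPKM in Saline-Heroin replicate 2, with the others at 35.6 to 37.0. The change of Dlg3 with heroin, self-administration less injection, was -0.19 on the log2 scale, with a limma p of 0.0325 and an adjusted p of 0.744. It was the 1 member of 10 at the p limit, which 6.55% of all genes passed. Route cannot be told apart from the other differences between the experiments.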

How the results depend on the processing

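Without the fold limit, the members passing went from 1 to 2 in LPS-Saline, from 0 to 1 in Saline-Heroin and from 0 to 2 in LPS-Heroin, each against Saline-Saline. They also went from 0 to 1 for LPS pooled over heroin, heroin pooled over LPS and the heroin effect by route, and from 3 to 4 between the saline groups. In Heroin-SA against Saline-SA the count of 1 became 2 with all groups in one fit and 0 with the replicate number as a block. The other planned settings left the count of members called in each comparison as it was. With 1 library left out, the count ran from 0 to 1 in LPS-Saline, 0 to 1 in Saline-Heroin, 0 to 2 in LPS-Heroin, 0 to 2 in Heroin-SA, 0 to 1 for LPS pooled, heroin pooled and the interaction, 3 to 3 between the saline groups, and 0 to 0 in the remaining comparisons. With LPS pooled over heroin the member was Homer2, called without Saline-Saline replicate 1, Saline-Saline replicate 4 or Saline-Heroin replicate 1, at 0.41 to 0.45. In the interaction it was Homer1, called at -0.52 to -0.47 without Saline-Saline replicate 3, Saline-Heroin replicate 2 or LPS-Heroin replicate 2. The cause of these changes was not tested. No called member reversed its direction under any alternative run.

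Same-numbered libraries were not treated as pairs, since their deviations from the group means did not all correlate above 0.1 in any comparison (lowest -0.150, highest 0.154). This rule could miss a pairing of some numbers only. In LPS-Saline and in Saline-SA, 3 libraries correlated best with the Saline-Saline library of their own number. The count was 2 in LPS-Heroin against Saline-Saline and against LPS-Saline, and 0 in the other comparisons. Apart from Homer1 in self-administration, where the limma p became 0.0600, the block changed no count of members called. The adjusted p of Shank3 between the saline groups ran from 0.00253 to 0.0521 over the settings, and that of Homer1 from 0.000109 to 0.0142. Depth limits Homer2, with 52 to 156 reads per library, and Shank2, with 223 to 516. Over all genes, no filter on low values raised the calls from 357 to 581 in LPS-Saline against Saline-Saline, from 345 to 548 and from 332 to 524 in LPS-Heroin against LPS-Saline and Saline-Heroin, and from 265 to 514, 371 to 627 and 349 to 565 for LPS pooled, heroin pooled and the interaction, with at most 7 genes at an adjusted p under 0.05. A fit of all groups gave 78 such genes in Heroin-SA against Saline-SA, none of them a member.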
